A study of Urocitellus parryii with 24 samples.

Results

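*CIRBP*, the gene of cold-inducible RNA-binding protein, was followed through the torpor-arousal cycle in the liver of the Arctic ground squirrel (AGS, *Urocitellus parryii*). It was followed on 1 of the 9600 spotted cDNA probes, gene4088, and was chosen by its measured means in torpor, arousal, and summer on these same arrays. For a gene with several probes the study kept the one with the smallest p-value of its analysis of variance. Whether *CIRBP* had further probes is not known here. Differences among torpor, arousal, and summer are therefore given as descriptions, without a test. The probe was tied to its symbol through the state means that the study lists for each named gene. The means of gene4088 lay within 4.09e-06 of those listed for *CIRBP* on the log2 scale, and those of the next nearest probe lay 0.62 away.

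*CIRBP* is a small nuclear and cytoplasmic protein with an RNA recognition motif and a glycine-rich tail. Mammalian cells make more of it under mild cooling, whereas most heat shock proteins are made on warming. It binds mRNAs and alters their stability, processing, and translation, and transcripts of the circadian clock are among those it is known to bind. A hibernator at rest in torpor cools to near ambient temperature and rewarms at intervals, so its liver passes through a far wider range of temperature than that of other mammals.

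Each of 24 animals gave 1 array. The hibernating animals were sampled in early torpor (n = 4), late torpor (n = 5), early arousal (n = 4), and late arousal (n = 4), and 7 summer active animals, which had finished reproduction and entered molt, served as the non-hibernating control. Torpor (T) and arousal (A) pool their stages, and P stands for the summer active animals. All were wild-trapped squirrels held in captivity, and no genotype or drug treatment is named for any group. T and A animals carried temperature transmitters in the abdomen, lived under a short daily light period, and had gone without food through hibernation, none of which the methods state for P. These conditions cannot be told apart from hibernation itself in the comparisons with P. Early arousal was sampled soon after body temperature had climbed past a set point in rewarming, and late arousal some hours later. T animals were killed without anesthesia and A and P animals under isoflurane, so anesthesia and body temperature cannot be told apart between T and the other states. Early and late torpor differ in how much of the bout had passed, and the methods name no other difference between them. Animals were numbered within a group in accession order, and the numbers pair no animals. The RNA is that of whole liver, in which fewer cells of a type and less RNA per cell cannot be told apart.

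The scanner files name 2 sets of membranes, A1 filters and A2 filters. All 9 T arrays, 7 of 8 A arrays, and 2 of 7 P arrays were on A1 filters, and the remaining A array, late arousal 2, and 5 P arrays were on A2 filters. Late arousal 2 had the highest value of the A arrays in 23.4% of the 9505 probes measured on all of them and the lowest in 21.6%. The same shares were not counted for the other A arrays. Results that rest on late arousal 2 are given with and without it. The label of late arousal 2 was checked on the probes that limma called for A against P on A1 filters. There it lay nearer the A mean at 72 of 82 probes (87.8%). The values of the A1 arrays had chosen these probes, and there the other A arrays lay nearer A at 91.7% to 100% and the 2 P arrays at 1.19% and 5.95%. The 5 P arrays on A2 filters, which like late arousal 2 had no part in the choice, lay nearer A at 28.6% to 47.6%. *ELOVL6*, a fatty acid elongase and one of the probes far apart between A and P, was chosen after its values were seen. Its log2 level was 1.15 on late arousal 2, 0.73 to 3.52 on the other A arrays, and 4.69 to 8.14 on the P arrays.

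The median spot of an array read 54.1 to 132 intensity units, and its median background 13.3 to 19.9. The *CIRBP* spot was 3.83 to 41.0 times its local background on the 24 arrays, and none of its spots was marked as empty or saturated. Of 16 hepatocyte markers 7 had a symbol here, and their mean log2 levels ran from 3.73 to 8.82 over the 3 states, where 0 is the middle probe of an array. How they differed among states is given with the other markers.

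*CIRBP* was high in torpor, intermediate in arousal, and low in summer. Levels are the log2 ratio of the background-subtracted signal to the median of its array, so that 0 is the middle probe. In early torpor the 4 levels were 3.03, 3.15, 3.02, and 2.69. In late torpor the 5 levels were 3.07, 3.41, 2.82, 2.76, and 3.09. These stages overlapped from 2.76 to 3.15, and the highest late level of 3.41 lay above every early one. All T values lay between 2.69 and 3.41.

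In early arousal the 4 levels of *CIRBP* were 1.42, 1.47, 2.14, and 1.88, every one below the lowest T level of 2.69. In late arousal they were 1.81, 0.53, 1.87, and 1.85. Animals 1, 3, and 4 of late arousal lay close together, whereas late arousal 2 lay below every other A animal and inside the summer range. The 7 summer active levels ran from 0.039 through a median of 0.52 to 1.11. All of them lay below the A1 arrays of arousal, whose lowest level was 1.42.

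**Figure D1:**
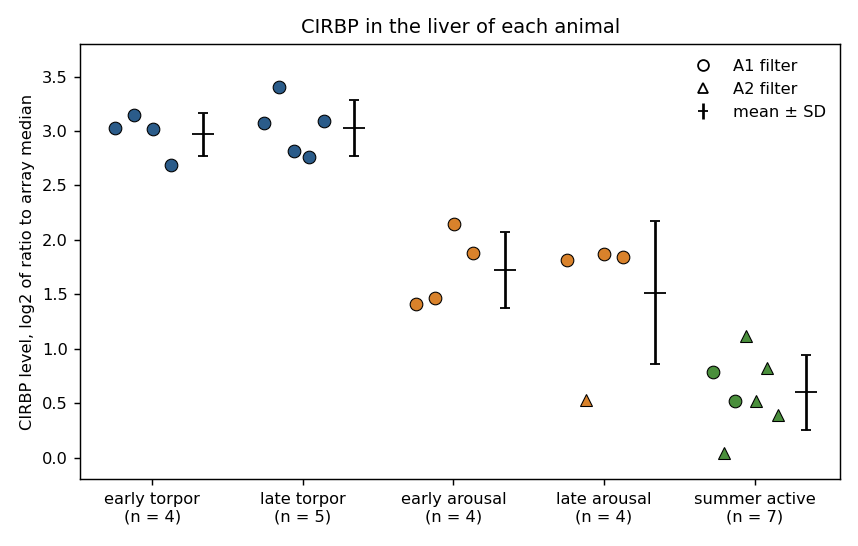
Level of CIRBP in each of the 24 livers (log2 of the ratio to the array median, vertical axis) by group (horizontal axis), with circles for A1 filters, triangles for A2 filters, and the mean ± SD beside each group. All torpor points lie at or above 2.69, and the late arousal triangle at 0.53 lies among the summer active points.

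As group means, *CIRBP* stood at 2.97 ± 0.20 (SD, n = 4) in early torpor, 3.03 ± 0.26 (n = 5) in late torpor, 1.73 ± 0.35 (n = 4) in early arousal, 1.52 ± 0.66 (n = 4) in late arousal, and 0.60 ± 0.35 (n = 7) in summer active animals. Without late arousal 2 the late arousal mean was 1.84 ± 0.031 (n = 3). From highest to lowest the order was thus late torpor, early torpor, early arousal, late arousal, summer, and without late arousal 2 the arousal stages changed places. The neighbours in that order within a state differed by less than their SDs. Late arousal and summer overlapped through late arousal 2 alone.

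Pooled by state, the log2 level of *CIRBP* was 3.003 ± 0.221 in T (n = 9), 1.62 ± 0.50 in A (n = 8), and 0.60 ± 0.35 in P (n = 7). T exceeded A by 1.38 on the log2 scale, a ratio of 2.61-fold, and P by 2.40, or 5.29-fold. A exceeded P by 1.02, or 2.03-fold. On A1 filters the same differences were 1.23 for T over A, 2.35 for T over P, and 1.12 for A over P, the last resting on 7 A and 2 P arrays. On A2 filters the only A array, at 0.53, lay within the 5 P arrays, whose mean was 0.58 ± 0.41. With the filter set as a block, A exceeded P by 0.71 and T exceeded P by 2.03. No T array was on an A2 filter, so this block rests on late arousal 2 and the P arrays. The differences on A1 filters above are without late arousal 2.

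The steps along the cycle can be read from the stages. Between late torpor and early arousal, the sampled points on either side of rewarming, *CIRBP* was 1.30 apart on the log2 scale, or 2.47-fold lower after rewarming. Between late arousal and early torpor, on either side of the return to torpor, it was 1.45 apart, or 2.74-fold higher in torpor, and 1.13 or 2.18-fold without late arousal 2. Early arousal stood 1.13 above summer. These are values of separate animals, not of one animal followed in time.

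The stages within a state were also compared. The probe was paired with its symbol by state means alone, but earlier results of these arrays were known when the gene and its stages were taken up, so the p-values are not independent of that choice. Late torpor exceeded early torpor by 0.061, with a 95% interval of -0.47 to 0.59 from limma's five-group fit and an adjusted p of 0.998. The exact two-sided permutation test of the 126 arrangements gave p = 0.651, where the smallest possible was 0.0159. The interval leaves room for differences of up to 0.59.

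In arousal, *CIRBP* fell by 0.21 from early to late on the log2 scale, with a 95% interval of -0.77 to 0.35 and an adjusted p of 0.884 by limma. The exact permutation test of 70 arrangements gave p = 0.743, with 0.0286 as the smallest possible. Without late arousal 2 the sign turned and late exceeded early arousal by 0.12. The stage difference in arousal minus that in torpor was -0.27, with a 95% interval of -1.04 to 0.50, an adjusted p of 0.947 by limma, and an exact permutation p of 0.556, and without late arousal 2 it was 0.055. Limma called 0 of 9595, 9597, and 9594 probes in these 3 comparisons, a background of 0.0%, and at an unadjusted p under 0.05 it found 458, 748, and 581, or 4.77%, 7.79%, and 6.06%.

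The filter sets could be set against each other within summer alone. The 5 P arrays on A2 filters had a *CIRBP* level 0.58 ± 0.41 and the 2 on A1 filters 0.66 ± 0.19. The A2 minus A1 difference was -0.078 (exact permutation p = 0.857, two-sided), and this design could not reach a p below 0.0952. After adjustment over these 4 exact tests of *CIRBP* each p was 0.857.

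Some torpid animals carried an identifier that begins with 04 and others did not, and the labels do not say what the prefix means. The 2 lowest T levels of *CIRBP*, 2.69 in early torpor 4 and 2.76 in late torpor 4, belonged to the only 2 T animals without it, a mean of 2.72 ± 0.053 against 3.08 ± 0.18 in the other 7. In arousal, the 1 animal without it, late arousal 4, stood at 1.85, among the others. In summer only summer active 7, at 0.39, carried it, so prefix and season can hardly be told apart in the comparisons with P. With the prefix as a block T exceeded A by 1.39 and P by 2.38, and A exceeded P by 0.99.

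The scale decides which states are clear of each other. In intensity units, before division by the array median, the *CIRBP* signal above background was 381 to 775 in T, 125 to 418 in A, and 62.3 to 114 in P. On this scale the lowest T value, 381 in early torpor 4, lay below the highest A value, 418 in early arousal 4, and all A values including late arousal 2 lay above P. The median of the whole array above background had a mean of 71.0 ± 13.1 units in T, 90.8 ± 12.8 in A, and 60.3 ± 11.4 in P, so division by it lowered A against T and P. Without the division, an alternative added after the data were seen, T exceeded A by 1.02 and P by 2.64, and A exceeded P by 1.62. The labels give one amount of amplified RNA per membrane, and whether arrays differed in loading, labelling, or RNA content was not tested.

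**Figure D2:**
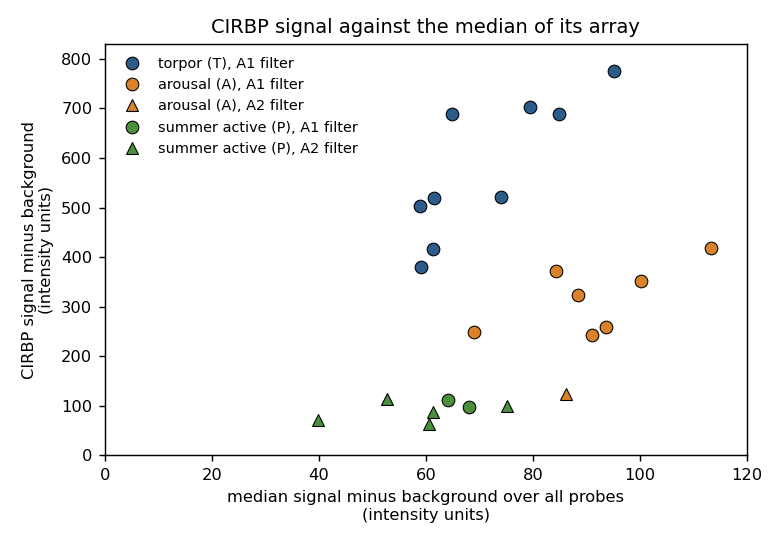
Background-subtracted signal of CIRBP (vertical axis, intensity units) against the median of the same quantity over all probes of the array (horizontal axis, intensity units), 1 point per animal, coloured by state and shaped by filter set. Torpor points reach from 381 to 775, the highest arousal point is at 418 on the array with the largest median, and the summer points do not exceed 114.

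By rank, the *CIRBP* spot was brighter than 87.2% to 92.0% of the probes of a T array, 62.9% to 85.3% of those of an A array, and 51.2% to 73.3% of those of a P array. The ranks, which need no scaling between arrays, kept T above A and P without overlap. The lowest A rank was again late arousal 2, and without it A began at 79.1%. Normexp background correction, quantile normalization, and mean pixel values also left every T array above every A and P array. All of these were taken with the division by the array median, without which T and A overlapped.

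On the log2 ratio scale, only 1 of 9407 probes measured on all arrays had every T array above every A and P array. This was *CIRBP*, 0.0106% of them. The gap between its lowest T level and its highest other level was 0.54. For background, 0.149% of probes had every T array above every A array, 0.404% had every T array above every P array, and 0.0957% had every A array above every P array. *CIRBP* was not in the last group because of late arousal 2. These counts use the contrast that chose the gene and are descriptions.

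In size alone *CIRBP* was less singular. Its T minus A difference ranked 12 of 9599 probes from the highest and 2 of the 1329 with a symbol, its T minus P difference ranked 19 and 11, and its A minus P difference ranked 97 of 9600 and 48. Its pooled SD within states was 0.37 on the log2 scale, against a median of 0.40 over probes, and 38.1% of probes had a smaller one. For comparison, the middle 95% of probes had T minus A differences from -0.45 to 0.71 and T minus P differences from -0.91 to 0.93.

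**Figure D3:**
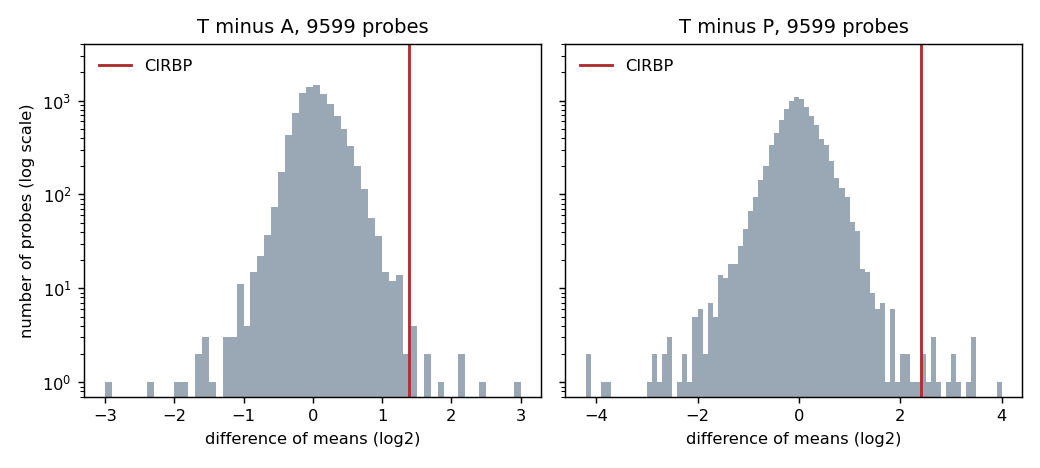
Number of probes (vertical axis, log scale) by the difference of state means in log2 units (horizontal axis, bins of 0.1) for T minus A and T minus P, with CIRBP as a vertical line at 1.38 and 2.40. Both lines lie in the sparse upper tails, with few probes to their right.

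The spots next to *CIRBP* on the membrane did not share its profile in size. Over the 8 adjoining spots, T minus A ran from -0.51 to 0.41 and T minus P from -0.41 to 1.26. The 1 closest in pattern was *BTF3L4*, a homologue of the transcription factor *BTF3*, with Pearson's r = 0.76 over the 24 arrays, and its mean levels were -0.15 in T, -0.30 in A, and -1.42 in P.

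Genes whose pattern was most like that of *CIRBP* were ranked by Pearson's r over the 24 arrays. The arrays share states, filter sets, and each array's median, and the correlations are given as descriptions. Over 9406 probes the median r was -0.0059, 5 probes exceeded 0.8, and 5 lay under -0.8, all of them with a symbol. Only genes that the study lists as differing among states have a symbol here, so this is no independent evidence. The most alike were *SRRD* with r = 0.85, *ETFDH* with 0.84, *ITIH3* with 0.83, *C1orf93* with 0.83, and *CYP4A11* with 0.80. *ETFDH* passes electrons from fatty acid oxidation to ubiquinone, *ITIH3* is a heavy chain of the inter-alpha-trypsin inhibitor secreted by liver, and *CYP4A11* hydroxylates fatty acids. On A1 filters alone their r was 0.70 to 0.77.

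These genes followed *CIRBP* in order of states but not in separation. *ETFDH* had log2 levels of 2.96 ± 0.19 in T, 2.36 ± 0.35 in A, and 2.00 ± 0.39 in P, and its T range of 2.60 to 3.19 overlapped the A range of 1.63 to 2.88. *CYP4A11* spanned far more, from 6.38 ± 1.10 in T through 4.77 ± 0.70 in A to 2.94 ± 1.37 in P. One torpid animal, early torpor 4, had *CYP4A11* at 3.90, below 7 of the 8 A arrays, although its *CIRBP* level was 2.69.

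The genes most unlike *CIRBP* were *HSPH1* with r = -0.83, *CCDC117* and *TMEM50B* with -0.82, *UBQLN1* with -0.81, and *TFB2M* with -0.80. *HSPH1* is a large heat shock protein that exchanges nucleotide on HSP70 chaperones, *UBQLN1* carries ubiquitinated proteins to the proteasome, and *TFB2M* starts transcription of mitochondrial DNA. *HSPH1* ran opposite to *CIRBP*, with 1.12 ± 0.27 in T, 1.92 ± 0.58 in A, and 2.48 ± 0.55 in P. Late arousal 2, where *CIRBP* was low, had the highest *HSPH1* level of the A arrays, 3.09 against 1.06 to 2.17 in the others.

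**Figure D4:**
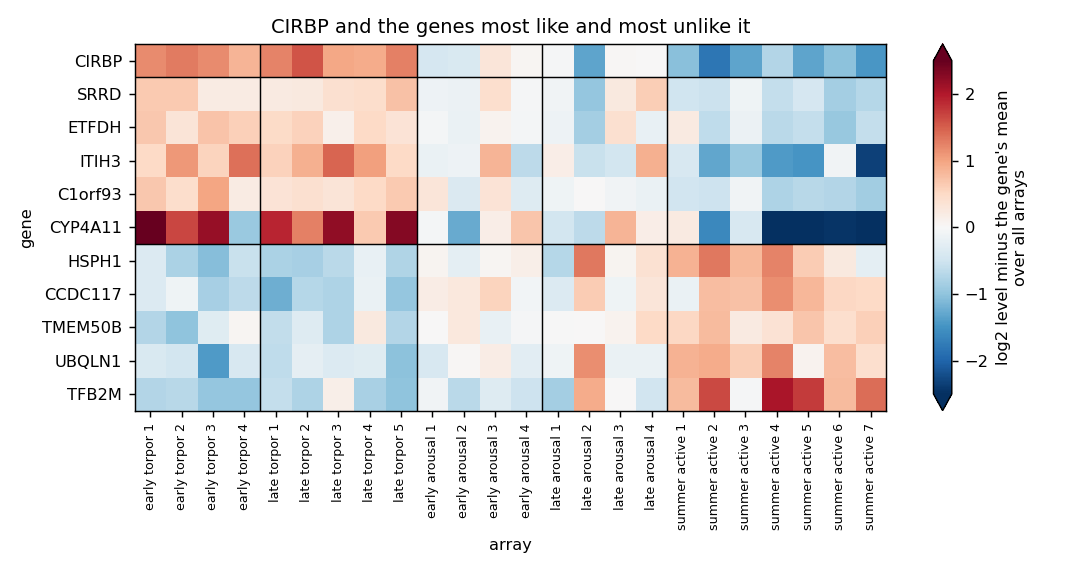
Levels of CIRBP and of the 5 genes most like and 5 most unlike it (rows) on the 24 arrays (columns, split by group), each as the log2 level minus that gene's mean over all arrays, on a colour scale cut at 2.5 either way. CIRBP and the like genes are above their means on the torpor arrays, apart from CYP4A11 in early torpor 4. The unlike genes are above theirs on the summer arrays, apart from HSPH1 in summer active 7, CCDC117 in summer active 1, and TFB2M in summer active 3. Late arousal 2 is above the mean for all 5 unlike genes, for TMEM50B only slightly.

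Much of this likeness is that of the state means. With each gene taken as its deviation from the 5 group means, r with *CIRBP* was 0.57 for *SRRD* and 0.45 for *ETFDH*, and it dropped to 0.17 and 0.13 once late arousal 2 was left out. *HSPH1* went from -0.42 to -0.048, whereas *TMEM50B* went from -0.26 to -0.46. Over these 5 like and 5 unlike genes, r of deviations ran from -0.022 to 0.57 and from -0.42 to -0.23, and without late arousal 2 from 0.063 to 0.18 and from -0.46 to 0.21. The named genes with the highest correlation of deviations were *LOC100131294* with 0.69, *APOB*, the structural protein of very low density lipoprotein, with 0.67, and *TMEM151B* with 0.64. Without late arousal 2 they stood at 0.63, 0.46, and 0.46. Probes with no symbol reached 0.82 on all arrays, so none of these led the array.

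Other RNA-binding proteins lay on both sides of 0 between T and A, and how many passed the test changed with the test. Symbols came from the study's list of genes that differ among states on these arrays, so neither this list nor the following ones are independent evidence. Of 21 named RNA-binding proteins, 0 were higher and 1 was lower in T than A at an adjusted p under 0.05 by limma, against 0.469% of all probes and 2.33% of probes with a symbol called either way. Of all probes 0.385% were called higher and 0.0833% lower, and of those with a symbol 1.73% and 0.602%. Their median T minus A difference was 0.0062, with 0.046 over all probes and 0.19 over those with a symbol. By the methods' test 2 were higher and 4 lower, where that test called 5.85% of all probes and 26.4% of those with a symbol. With mean pixel values 4 of the 21 were called (1.65% and 7.45%), and 3 once filter sets were blocked (1.29% and 6.09%). *CIRBP* itself, at 1.38, lay above all 21.

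The member that passed was *G3BP1*, a scaffold of stress granules, with -0.83 (SE 0.19, adjusted p = 0.0391 by limma). Its levels ran from -0.25 to 0.82 in T and from 0.52 to 1.77 in A, and leaving out 1 array at a time lost the call for 12 of 24 arrays, namely early torpor 1 to 4, late torpor 2, 4, and 5, early arousal 1 to 4, and late arousal 4, with adjusted p of 0.0225 to 0.0697 over all 24. At the upper end, the splicing factors *HNRNPA1*, *HNRNPL*, and *RBM25* had differences of 0.74 (adjusted p = 0.0510), 0.64 (0.151), and 0.62 (0.0626). With the filter set as a block, *HNRNPA1* and *RBM25* passed, with adjusted p of 0.0433 and 0.0495 by limma. On A1 filters alone, without late arousal 2, they stood at 0.0382 and 0.0581. Over the 8 alternatives other than leaving out 1 array, their adjusted p ran from 0.0288 to 0.441 and from 0.0444 to 0.504. At the lower end stood *TARDBP*, a regulator of splicing, with -0.87 (0.0599), and *SFRS1*, a splicing factor, with -0.53 (0.212). Between T and P, 9 of the 21 were higher and 4 lower, against 25.6% and 21.7% of probes with a symbol and 5.5% and 4.35% of all probes.

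Among heat shock proteins and their cochaperones, those past the threshold were lower in torpor. Of 15 with a symbol, 0 were higher and 2 were lower in T than A, *DNAJB4* by -1.07 (SE 0.21, adjusted p = 0.0183 by limma) and *HSPA8* by -1.02 (SE 0.23, adjusted p = 0.0391). Limma called 0.469% of all probes and 2.33% of those with a symbol in this comparison, 0.0833% and 0.602% as lower in T. The methods' test called 5.85% of all probes and 26.4% of those with a symbol. By it 7 of the 14 that it could test were lower and 0 higher. Limma's count ran from 1 to 4 when 1 array was left out, and the share of all probes then called is not given here. *HSPA8* is the constitutive HSP70 and *DNAJB4* is an HSP40 cochaperone. The list median was -0.36 for T minus A, with 0.046 over all probes and 0.19 over those with a symbol. *DNAJB9*, an HSP40 of the endoplasmic reticulum, had the lowest value at -1.21 and missed the threshold (adjusted p = 0.0523 by limma). With the filter set as a block it passed at 0.0433, and on A1 filters alone, without late arousal 2, it stood at 0.0696. Its adjusted p ran from 0.0159 to 0.108 over the same 8 alternatives. The highest were *HSPE1*, a mitochondrial chaperonin, with 0.57, *DNAJC9* with 0.47, and *DNAJB6* with 0.32, none past the threshold.

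The call of *DNAJB4* was kept when any 1 array was left out, with adjusted p of 0.0109 to 0.0429, but not with normexp correction, which took its difference to -0.16 (adjusted p = 0.349, the highest of the same 8 alternatives, with 0.00358 the lowest). That of *HSPA8* was lost without any 1 of early torpor 2, 3, or 4, late torpor 1, 3, 4, or 5, and early arousal 1 to 4, with a highest adjusted p of 0.0710. Between T and P, 8 of the 15 were lower and 2 higher in T. Of probes with a symbol 21.7% were called lower and 25.6% higher, and of all probes 4.35% and 5.5%. On late arousal 2, 6 of the 15 genes (40.0%) had their highest A value, against 23.4% of all probes. Among them were *HSP90AB1*, the constitutive HSP90, at 3.17 with at most 2.22 on the other A arrays, and *HSPH1*. The part of this array's filter set in these values was not tested.

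**Figure D5:**
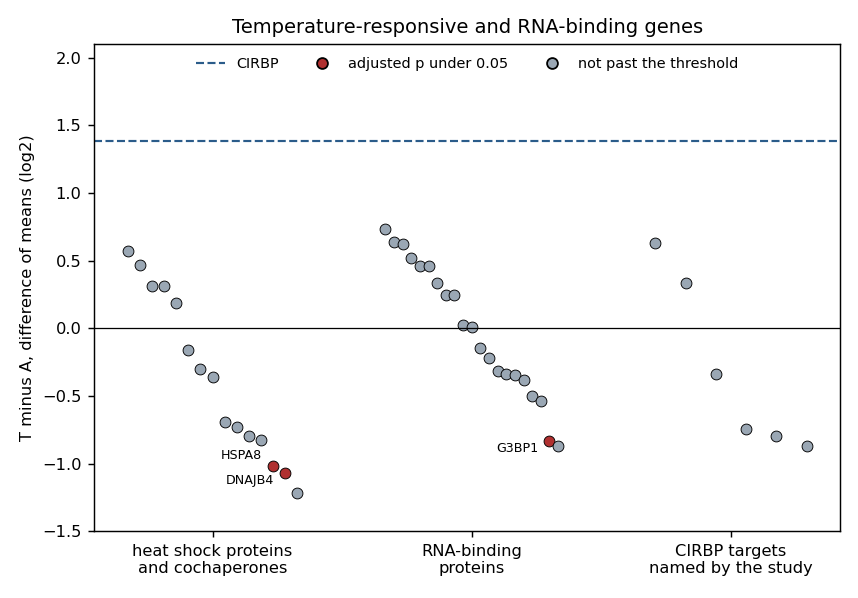
Difference of mean log2 levels between T and A (vertical axis) for each named gene of 3 lists (horizontal axis), sorted within a list, with red for an adjusted p under 0.05 by limma, grey for the rest, and a dashed line at the 1.38 of CIRBP. No listed gene reaches the line, and the red points, DNAJB4, HSPA8, and G3BP1, are all lower in torpor.

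The study names 6 transcripts as *CIRBP* targets that differ on these same arrays between T and P and between T and A. Their counts are therefore no independent evidence, and all 6 had a probe. The study chose them by the methods' test, which called 5.85% of all probes and 26.4% of those with a symbol between T and A. Between T and A 0 of 6 passed limma's threshold, where 0.469% of all probes and 2.33% of those with a symbol did: *NNT* stood at 0.63 (adjusted p = 0.137), *THRA* at 0.34 (0.272), *FUBP1* at -0.34 (0.273), *DERL2* at -0.75 (0.124), *SMAD5* at -0.80 (0.0623), and *TARDBP* at -0.87 (0.0599). *SMAD5*, a transducer of bone morphogenetic protein signals, passed with the filter set as a block (adjusted p = 0.0442 by limma) at a difference of -0.70. On A1 filters alone, without late arousal 2, its adjusted p was 0.0780. It ran from 0.0442 to 0.116 over the same 8 alternatives and from 0.0224 to 0.136 with 1 array left out. *NNT* is the mitochondrial transhydrogenase, *THRA* a thyroid hormone receptor, *FUBP1* a single-stranded DNA- and RNA-binding protein, and *DERL2* a part of degradation at the endoplasmic reticulum.

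Between T and P, 5 of these 6 passed, where 9.86% of all probes and 47.3% of those with a symbol did. *NNT* at 0.95 (adjusted p = 0.00669 by limma) and *THRA* at 0.58 (0.0130) were higher in T, and *DERL2* at -1.21 (0.00368), *TARDBP* at -0.93 (0.0106), and *SMAD5* at -0.67 (0.0448) were lower. *FUBP1* stood at -0.41 (0.0795). These 6 named targets of *CIRBP* lay on both sides of 0 where *CIRBP* itself was 2.40 higher. Their own r with *CIRBP* over the arrays ran from -0.74 for *DERL2* to 0.68 for *THRA*. The study drew its targets from published data on binding by *CIRBP* and on its knockdown. It reports an enrichment of these targets among genes that changed alike in T against P and T against A. That enrichment was not tested here.

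Of genes tied to *CIRBP* by function, *RPA2*, a subunit of replication protein A whose mRNA is a known target of *CIRBP*, had a T minus A difference of -0.30 (adjusted p = 0.337). Of the clock genes fixed for description 2 had a symbol. *TEF*, a transcription factor under clock control, was 0.87 higher in T than P (adjusted p = 0.00560 by limma), and its T minus A difference was 0.58 (0.123). *CSNK1D*, a kinase of the PER proteins, stood at -0.072 for T minus A (0.851).

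The 7 hepatocyte markers with a symbol did not all differ in one direction among states. They have a symbol because the study lists them as differing among states, so that they moved is no finding. Of all probes limma called 0.385% higher and 0.0833% lower in T than A, and of those with a symbol 1.73% and 0.602%. Of the 7, 1 was higher and 0 lower. Their median difference was 0.54, with 0.046 over all probes and 0.19 over those with a symbol. The 1 was *APOB* at 0.86 (adjusted p = 0.0110), a call kept without any 1 array (0.00260 to 0.0273) but not with quantile normalization (0.47, adjusted p = 0.324, against 0.00617 to 0.0216 under the other 7 alternatives). *FGB*, a chain of fibrinogen, lay on the other side at -0.50 (0.501), and *ALB*, the gene of serum albumin, stood at 0.41 (0.336).

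Between A and P, 0 of these 7 were higher and 3 were lower in A, where 5.85% of all probes and 26.4% of those with a symbol were lower. They were *TTR*, a thyroid hormone carrier, at -1.32 (adjusted p = 0.00165 by limma), *APOA2*, an apolipoprotein of high density lipoprotein, at -1.11 (0.00261), and *SERPINA1*, a protease inhibitor, at -0.81 (0.0414), and *ALB* stood at 0.15 (0.679). Between T and P, *APOB* at 0.71 (0.00750) and *CYP2E1*, a cytochrome P450, at 0.90 (0.00884) were higher in T and *FGB* at -1.28 (0.0132) was lower. In that comparison 25.6% of probes with a symbol were called higher and 21.7% lower, and 5.5% and 4.35% of all probes. The r of the 7 with *CIRBP* over the arrays ran from -0.54 to 0.76, and their part in its levels was not tested.

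Markers of other cell types were few. *HBA2*, a globin of red cells, had log2 levels of -0.039 to 2.97 in T, -1.31 to 1.27 in A, and 0.63 to 1.27 in P, a T minus A difference of 1.26 (adjusted p = 0.0906). *LYZ*, the lysozyme of myeloid cells, stood 0.64 apart (0.356). *DCN*, a proteoglycan of stroma, and *ACTA1*, the actin of skeletal muscle, had T minus A differences past no threshold (0.017 and 0.24) and higher in T than P by 0.70 and 1.35 (adjusted p = 0.0407 and 0.00879). *FABP4* of fat cells and endothelium differed by -0.022 and 0.40. The r of these 5 genes with *CIRBP* ran from -0.17 to 0.68, and their part in its levels was not tested.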

How the data were processed

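Liver RNA of 24 AGS was amplified, labelled with a radioactive nucleotide, and hybridized to nylon membranes in a single batch. Per the file headers, the deposited scanner files hold spot and local background intensity, read from phosphorimager scans with ImaGene 6.1.0. They also deposited a ratio, the background-subtracted median signal divided by the median of the array, on a linear scale. That ratio was recomputed and differed from the deposited ratio by at most 4.98e-07 off its floor. Log2 of the recomputed ratio was used, as the authors did, and 668 of 230400 spots at or below 0 were missing. The arrays' number limits the precision. The p-values set differences against the spread between arrays. No animal had repeated arrays, so variation between animals and that of measurement cannot be told apart in this spread.

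The members and gene lists were chosen with earlier results of these data known. Symbols were paired with 1329 of 9600 probes by the state means the study lists, within 1e-04, and other probes, which may hold further clones of *CIRBP*, carry no symbol. Columns of the authors' comparisons in that list (fold changes and p-values) were not used. No sequence or coordinate is given for the probe.

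Stages were tested with limma 3.58.1 in R 4.3.3 over 5 groups and lists over the 3 states, with Benjamini-Hochberg adjustment over all probes and a threshold of 0.05, and with exact permutation tests by scipy 1.17.1. The fits were tested on simulated data. Tables used pandas 2.3.3 and numpy 2.4.6, and plots matplotlib 3.10.9. Named genes were the 5 most and 5 least correlated with *CIRBP*, the 3 with the highest correlation of deviations from group means, all named targets, partners, and clock genes, and the 3 highest and lowest T minus A differences of the RNA-binding and heat shock lists. Cell type markers and other genes are named beside them, *ELOVL6*, *BTF3L4*, and *HSP90AB1* after their values were seen. Alternatives were normexp with an offset of 50, quantile normalization, the deposited ratio, mean pixel values, only probes over 2 times background on at least 7 arrays, filter set or identifier prefix as a block, A1 filters only, arrays of one state only, the methods' test (one-way analysis of variance with Storey's q and Tukey's test), and leaving out each array. Division by the array median was dropped as an alternative added after the data were seen.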

Additional observations from a re-analysis of the deposited data

Results flagged for a closer look

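Single animals were looked for by the gap between the lowest or highest array of a group and its neighbour, as a share of the group's range. *CIRBP* in late arousal had a share of 0.954, because late arousal 2 lay at 0.53 and the other 3 animals between 1.81 and 1.87. Over all 8 A arrays the same animal gave a share of 0.548. It was also the extreme for *UBQLN1* in A, with 0.622. In T, late torpor 3 was high for *TFB2M* with 0.638, late torpor 5 was low for *DERL2* with 0.556, and late torpor 1 was high for *SMAD5* with 0.547. In P, summer active 5 was high for *HNRNPA1* with 0.576. All 7 shares exceed Dixon's critical value for their group size at the 95% level. Chance gives such a value in about 1 of 20 groups, and 106 groups were examined over 34 genes, 7 of them for *CIRBP*.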

How the results depend on the processing

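The differences of *CIRBP* among states kept their direction under each of the 9 alternatives, from 1.02 to 1.40 for T minus A, 1.96 to 2.64 for T minus P, and 0.71 to 1.62 for A minus P. Moves beyond the SD within a state were 1.96 with normexp and 2.03 with the filter block for T minus P, and 1.62 without division by the array median for A minus P. The tested stage differences stayed past no threshold, with adjusted p by limma of 0.740 to 0.999 in torpor, 0.735 to 0.978 in arousal, and 0.915 to 0.985 for their difference. Their signs turned in torpor with normexp (-0.064) and without the division (-0.23), and on A1 filters in arousal (0.12) and in their difference (0.055). Genes of the RNA-binding list called between T and A numbered 1, and 4 with mean pixel values, 2 without dim probes, 3 with the filter block, 2 on A1 filters, and 6 by the methods' test. Those of the heat shock list numbered 2, and 1 with normexp and 7 by the methods' test. They numbered 3 with mean pixel values, without dim probes, and with the filter or prefix block. Of all probes 0.469% were called in the main fit, 1.65% with mean pixel values, 1.29% with the filter block, and 5.85% by the methods' test. Of probes with a symbol the shares were 2.33%, 7.45%, 6.09%, and 26.4%. Shares under the other settings are not given here, so the counts are not read as changes of the lists. The causes were not tested.

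Leaving out each array in turn gave 1.23 to 1.46 for T minus A, 2.31 to 2.49 for T minus P, 0.93 to 1.18 for A minus P, -0.033 to 0.13 for the stages of torpor (below 0 without early torpor 4 or late torpor 2), -0.33 to 0.12 for those of arousal, -0.39 to 0.055 for their difference (both above 0 only without late arousal 2), and -0.21 to 0.057 for the filter sets in summer (above 0 without summer active 1 or 2). The RNA-binding count ran from 0 to 2 and the heat shock count from 1 to 4. The shares of all probes called in these fits are not given here. No paired analysis was possible because replicate numbers were given in accession order and each animal was sampled once. Few arrays on A2 filters in A limit what can be said of filter sets.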
